A study of Homo sapiens with 4 samples.

Results

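A group of 9 long noncoding RNAs was followed in hepatoma cells and in stem-like cultures grown from them. They were UCA1, HULC, LOC553137, MALAT1, NEAT1, GAS5, SNHG8, SNHG1 and CDKN2B-AS1, 9 of the 16370 genes listed in the count files, and were found by their symbols. Hep3B and Huh7 are established human hepatoma cell lines, the hepatocellular carcinoma (HCC) group. Hep3B-C and Huh7-C are the stem-like cultures derived from them, the hepatic cancer stem cell (HCSC) group. No other treatment, genotype or passage was given for any culture. Each cell line was 1 culture and 1 RNA sequencing library, so a difference between an HCSC line and its parental line had no replicate check. The members were chosen by the HCSC to HCC ratios of CPM (counts per 1000000 gene counts of the library) in these same libraries, with UCA1, HULC and LOC553137 picked because they were lower in both HCSC lines. Those ratios are therefore a description, with counting intervals and no test.

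Long noncoding RNAs are transcripts that carry no long reading frame and act, where a function is known, as RNA. UCA1 and HULC are mostly cytoplasmic RNAs first described in tumors, HULC in liver cancer. MALAT1 is retained in nuclear speckles, and NEAT1 is the scaffold around which paraspeckles assemble. GAS5, SNHG1 and SNHG8 are host genes whose introns hold small nucleolar RNAs (snoRNAs), and spliced host RNAs such as GAS5 are known targets of nonsense-mediated decay. CDKN2B-AS1, also called ANRIL, runs antisense to CDKN2B in the locus of the cell cycle inhibitors p15 and p16 and is known to bind Polycomb proteins. No role is given here for LOC553137.

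The libraries held between 2896418 and 4641927 gene counts, and 3 counts, taken as the floor, stood at 0.646 to 1.04 CPM. Both lineages carried hepatocyte transcripts, with all 8 hepatocyte markers listed and a summed level between 26001 and 62633 CPM, but the markers were unequal. In Huh7 SERPINA1 alone held 40517 of 48690 CPM. The others there were APOB (4781 CPM), TF (1547), APOA1 (1350), HNF4A (380), ALB (106), AFP (5.73) and TTR (2.87). In Hep3B ALB stood at 19541, AFP at 5584 and TTR at 41.1 CPM. In the Hep3B pair the log2 ratio of HCSC to HCC followed gene length (Spearman -0.43 across 11433 genes) and GC content (0.63 across 11338 genes). In the Huh7 pair the same coefficients were 0.31 and -0.06. The median log2 ratio of all genes was -0.60 in the Hep3B pair and 0.06 in the Huh7 pair, and TMM scaling moved the former to -0.12. The part of length, GC content and scaling in the members' ratios was not tested beyond the values given beside them. In bulk RNA, fewer cells that make a transcript and less of it per cell cannot be told apart.

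Of the 9 RNAs, 8 matched the RefSeq annotation of GRCh38.p14 by gene ID, all as lncRNA genes, and LOC553137 did not. UCA1 lies at chr19:15828947-15836321, HULC at chr6:8652269-8653856 and CDKN2B-AS1 at chr9:21994791-22128142. NEAT1 at chr11:65422798-65445540 and MALAT1 at chr11:65497738-65506516 are neighbors, 52198 bases apart. SNHG1 lies at chr11:62851978-62855885, GAS5 at chr1:173863901-173869045 and SNHG8 at chr4:118278762-118279823. The reads had been aligned to an older build, so these positions are annotation only.

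UCA1, whose level differed most between the libraries, is spliced from 3 exons in the GENCODE transcript UCA1-201, of 244, 102 and 1679 bases. The length given with the UCA1 counts was 1414 bases, shorter than the 2025 bases of this transcript. The middle exon (GRCh38, chr19:15831255-15831356, plus strand) is shown in capitals with 20 bases of each neighboring exon, to show both splice junctions of the mature RNA.
UCA1: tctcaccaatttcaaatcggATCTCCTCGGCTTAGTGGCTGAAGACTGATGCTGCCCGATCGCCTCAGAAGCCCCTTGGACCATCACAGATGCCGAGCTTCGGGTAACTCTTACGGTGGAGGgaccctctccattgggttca

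MALAT1 and NEAT1 are the pair of nuclear members with ratios that differed most between the parental lines, and they share an unusual ending. Each long transcript ends without a poly(A) tail, in an element in which U-rich stretches fold onto an A-rich stretch. The element was searched as 3 T, C and 4 T, then 4 T, GC and 4 T, then at least 5 A followed by GCAAAA, in the GENCODE transcripts MALAT1-202 and NEAT1-202, and was found once in each. It is printed as DNA, with both U-rich stretches and the A-rich stretch in capitals (GRCh38, plus strand, chr11:65506028-65506116 for MALAT1 and chr11:65445452-65445540 for NEAT1).
MALAT1: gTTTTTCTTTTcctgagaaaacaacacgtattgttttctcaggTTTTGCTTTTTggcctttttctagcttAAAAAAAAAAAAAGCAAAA
NEAT1: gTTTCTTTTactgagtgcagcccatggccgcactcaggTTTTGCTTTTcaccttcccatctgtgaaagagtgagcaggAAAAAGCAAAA
Both elements were 89 bases long. The NEAT1 transcript stopped at the last base of its element, and the annotated MALAT1 transcript ran on for 353 bases. Whether poly(A) RNA was selected when the libraries were made is not given in the sources used here.

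The snoRNA hosts are usually described as starting with a terminal pyrimidine tract, as ribosomal protein genes do. The 40 bases before the annotated RefSeq start (GRCh38.p14) and the 40 bases from the start on are shown. The run of C and T that touches the start is in capitals. GAS5 is at chr1:173869006-173869085 and SNHG1 at chr11:62855846-62855925, both on the minus strand, and SNHG8 is at chr4:118278722-118278801 on the plus strand.
GAS5: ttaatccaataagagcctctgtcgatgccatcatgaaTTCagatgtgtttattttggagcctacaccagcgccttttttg
SNHG8: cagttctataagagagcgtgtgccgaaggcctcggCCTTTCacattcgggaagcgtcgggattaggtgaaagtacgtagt
SNHG1: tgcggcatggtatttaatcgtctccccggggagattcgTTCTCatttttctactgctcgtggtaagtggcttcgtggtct
The run was 3 bases in GAS5, 6 in SNHG8 and 5 in SNHG1. That of GAS5 lay wholly before the start, that of SNHG8 ended on the first base of the transcript, and that of SNHG1 crossed it. Over all 35116 windows, 18.2% had a run of at least 5 bases and 12.5% one of at least 6. A start at C followed by at least 4 pyrimidines was in none of the 6 windows of the members and in 4.07% of all windows.

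UCA1 was lower in both HCSC lines, from very unequal starting levels. Hep3B had 26 counts of UCA1, or 8.98 CPM, and Hep3B-C had 0, which at the floor of 3 counts allows up to 0.646 CPM. Huh7 had 3790 counts, or 835 CPM, and Huh7-C had 33, or 7.61 CPM. The Huh7 library thus stood far above the other 3, and Huh7-C was left near the level of Hep3B. UCA1 was at least 13.9-fold lower in Hep3B-C than in Hep3B, against that floor with the 26 counts taken as exact, and by at least 10.5-fold where the 95% counting interval of the ratio is used. In the Huh7 pair it was 110-fold lower in Huh7-C, with a 95% counting interval of 78.0 to 160. The log2 ratios were -6.41 and -6.76 with 0.5 added to each count, and the first of these depends on the added value (-3.31 with 5 added). The difference of the log2 ratios of the pairs was 0.35, with a counting interval of -2.47 to 3.17. Of genes with 10 or more counts in the Huh7 pair, 0.0335% had a lower ratio there.

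HULC had its highest level in Hep3B and was lost from the Huh7-C library. Hep3B had 194 counts (67.0 CPM), Hep3B-C 33 (7.11 CPM), Huh7 76 (16.7 CPM) and Huh7-C 0, which allows up to 0.692 CPM. Both HCSC libraries were below both HCC libraries. HULC was 9.42-fold lower in Hep3B-C (counting interval 6.49 to 14.1) and at least 24.2-fold lower in Huh7-C against the floor (19.2-fold by the counting interval). The log2 ratio in the Hep3B pair exceeded that in the Huh7 pair by 3.97 (counting interval 1.17 to 6.78), and the latter depends on the 0.5 added to a count of 0.

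LOC553137 was the one of the 3 picked RNAs that was still read in both HCSC lines, at nearly the same level. The counts were 185 in Hep3B (63.9 CPM) and 10 in Hep3B-C (2.15 CPM), against 163 in Huh7 (35.9 CPM) and 9 in Huh7-C (2.08 CPM). Both HCSC libraries fell to about the same level, and both HCC libraries were above it. The RNA was 29.6-fold lower in Hep3B-C (counting interval 15.8 to 62.9) and 17.3-fold lower in Huh7-C (8.89 to 38.5). The difference of the log2 ratios was -0.78, and its counting interval of -1.69 to 0.12 held 0.

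**Figure D1:**
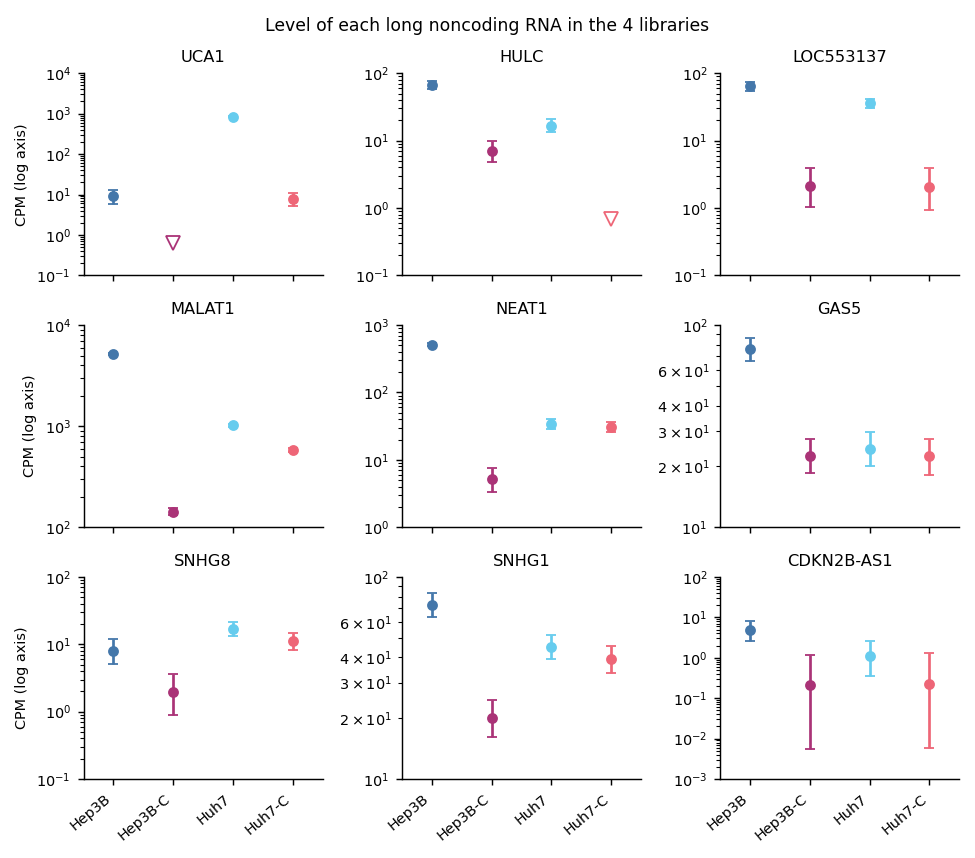
Level of each RNA in the 4 libraries in CPM on a log axis, as points with 95% Poisson intervals, and as open triangles at the floor of 3 counts where the count was 0 (UCA1 in Hep3B-C, HULC in Huh7-C). UCA1, HULC and LOC553137 are lower in both HCSC libraries than in their parental libraries, whereas MALAT1 and NEAT1 are far lower in Hep3B-C (143 and 5.17 CPM) and change less in Huh7-C.

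MALAT1, the nuclear speckle RNA, had the most counts of the members in each library and was depleted mainly in Hep3B-C. Hep3B had 15014 counts of MALAT1 (5184 CPM), Hep3B-C 664 (143 CPM), Huh7 4610 (1016 CPM) and Huh7-C 2510 (579 CPM). In Hep3B it alone held 0.518% of all gene counts. The ratio was 36.2-fold lower in Hep3B-C (counting interval 33.5 to 39.2) and 1.75-fold lower in Huh7-C (1.67 to 1.84). At 8705 bases MALAT1 is a long RNA, and with the trend of the ratio on length removed its log2 ratios were -4.11 in the Hep3B pair and -1.23 in the Huh7 pair, against -5.18 and -0.81 without. With the GC trend removed as well, they were -3.47 and -1.29.

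NEAT1, the paraspeckle scaffold, had 24 counts left in Hep3B-C, and a level in Huh7-C near that in Huh7. The counts were 1474 in Hep3B (509 CPM) and 24 in Hep3B-C (5.17 CPM), against 154 in Huh7 (33.9 CPM) and 132 in Huh7-C (30.5 CPM). Hep3B stood apart on the high side and Hep3B-C on the low side, with the Huh7 lineage between them. NEAT1 was 98.4-fold lower in Hep3B-C (counting interval 65.9 to 154). In Huh7-C it was 1.11-fold lower, and the interval of 0.877 to 1.42 held 1. The log2 ratios of the pairs differed by -6.44 for NEAT1 and by -4.37 for MALAT1, with counting intervals of -6.90 to -5.97 and -4.46 to -4.28. NEAT1 has the greatest length of the members, at 17357 bases, and its log2 ratio in the Hep3B pair was -6.59, or -5.00 with the length trend removed and -4.81 with the length and GC trends removed. In the Huh7 pair it was -0.16, and moved to -0.93 and -0.96 with these trends removed. The counts do not separate the short and the long NEAT1 transcript.

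The 3 snoRNA hosts were each at least 2-fold lower in Hep3B-C, and were lower by less than 2-fold in Huh7-C. GAS5 had 220 counts in Hep3B (76.0 CPM) and 105 in Hep3B-C (22.6 CPM), against 111 in Huh7 (24.5 CPM) and 97 in Huh7-C (22.4 CPM). Hep3B was thus the one library in which GAS5 stood high. SNHG1 had 210 counts in Hep3B (72.5 CPM) and 93 in Hep3B-C (20.03 CPM), against 205 in Huh7 (45.2 CPM) and 170 in Huh7-C (39.2 CPM). SNHG8 had 23 counts in Hep3B (7.94 CPM) and 9 in Hep3B-C (1.94 CPM), against 77 in Huh7 (17.0 CPM) and 48 in Huh7-C (11.1 CPM). SNHG8 was the one host with its higher levels in the Huh7 lineage.

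In Hep3B-C the hosts were lower by 3.36-fold for GAS5 (counting interval 2.65 to 4.28), 3.62-fold for SNHG1 (2.82 to 4.67) and 4.10-fold for SNHG8 (1.83 to 10.1). In Huh7-C the values were 1.09-fold for GAS5, 1.15-fold for SNHG1 and 1.53-fold for SNHG8. Only the last had an interval that left out 1 (1.05 to 2.25). The log2 ratios in the Hep3B pair were -1.74, -1.85 and -1.99, and depend on the processing, being -1.26, -1.37 and -1.50 with TMM scaling and -2.97, -2.94 and -3.21 with the length trend removed. The hosts are short, at 618 to 1118 bases, and the sign of the small Huh7 ratios of GAS5 and SNHG1 turned when the length trend was removed (log2 of 0.24 and 0.05).

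CDKN2B-AS1 was at the limit of detection. There were 14 counts in Hep3B (4.83 CPM) and 1 in Hep3B-C, against 5 in Huh7 (1.10 CPM) and 1 in Huh7-C. Both HCSC libraries held a single read, so their levels could not be placed above the floor. The ratio of HCC to HCSC was 22.4 in the Hep3B pair (counting interval 3.41 to 949) and 4.78 in the Huh7 pair (0.534 to 226).

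Counted together, all 9 members were at least 2-fold lower in Hep3B-C, where 40.1% of all genes with at least 10 counts in the pair were. In Huh7-C 4 of the 9 were at least 2-fold lower, namely UCA1, HULC, LOC553137 and the nearly unread CDKN2B-AS1, against 7.6% of all genes. The same 4 were lower in both lines, as were 3.08% of genes that reached 10 counts in both pairs. No member was at least 2-fold higher in either line, a change that 18.3% of genes showed in Hep3B-C and 7.25% showed in Huh7-C. All 9 log2 ratios were below 0 in both pairs, a pattern of 27.8% of all genes. Since the ratios chose the list, nothing is read from these counts. MALAT1 would join the 4 in Huh7-C with the length trend removed, and CDKN2B-AS1 would leave them with 5 added to each count or with at least 10 counts required in the pair. Summed, the 9 RNAs took 0.599% of all gene counts in Hep3B and 0.0202% in Hep3B-C, against 0.203% in Huh7 and 0.0692% in Huh7-C.

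**Figure D2:**
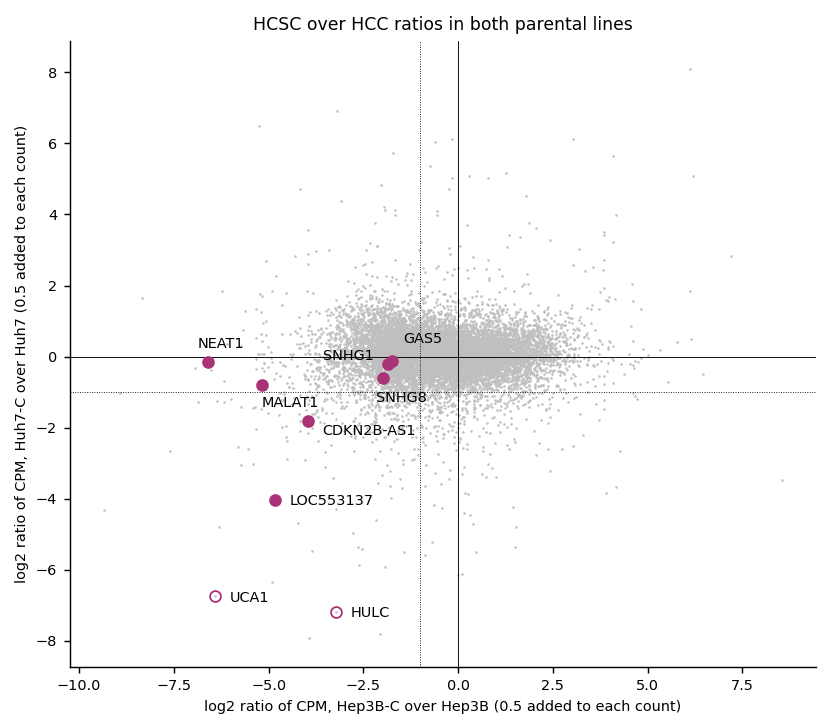
Log2 ratio of HCSC to HCC in the Hep3B pair (horizontal axis) and the Huh7 pair (vertical axis), with 0.5 added to each count. Gray points are the 11151 genes that reached 10 counts in both pairs, dotted lines mark a 2-fold lower level, and open circles are members with a count of 0 in an HCSC line. UCA1 (-6.41 and -6.76), HULC and LOC553137 lie at the lower left, while NEAT1 (-6.59 and -0.16) lies at the far left near 0 on the vertical axis.

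Levels of different genes were compared per length, as RPKM (counts per kilobase of the length in the file per 1000000 gene counts). In Hep3B the order ran from MALAT1 (595 RPKM) over HULC (138), GAS5 (120), SNHG1 (64.9), NEAT1 (29.3), LOC553137 (26.0), SNHG8 (12.8) and UCA1 (6.35) to CDKN2B-AS1 (1.26). The counting intervals overlapped for HULC and GAS5, for NEAT1 and LOC553137, and for SNHG8 and UCA1. In Huh7 UCA1 came first at 591 RPKM, with more RPKM than 99.2% of the listed genes, and MALAT1 followed at 117. SNHG1, GAS5, HULC and SNHG8 followed at 27.5 to 40.4 RPKM, each overlapping its next neighbor in that order. LOC553137 stood at 14.6, NEAT1 at 1.96 and CDKN2B-AS1 at 0.288 RPKM. The RPKM of NEAT1 used 17357 bases, so its place in each library depends on that length, since its short and long transcripts are not separated.

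The order was changed in the HCSC lines. In Hep3B-C GAS5 came first at 35.8 RPKM, followed by SNHG1 (17.9), MALAT1 (16.4) and HULC (14.6), with overlapping intervals between neighbors among the last 3. SNHG8 stood at 3.14 RPKM and all others were below 1, though the interval of SNHG8 overlapped that of LOC553137. In Huh7-C MALAT1 led at 66.5 RPKM, ahead of GAS5 (35.4) and SNHG1 (35.1), which did not differ beyond their intervals, and of SNHG8 (17.9). UCA1 (5.39), NEAT1 (1.75) and LOC553137 (0.845) followed, with overlapping intervals for NEAT1 and LOC553137.

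The difference between the parental lines is another contrast than the one that chose the list, and it was fitted with edgeR (quasi-likelihood, 4 libraries, HCSC or HCC state as a term). This test compared 2 libraries of each lineage and left 1 residual degree of freedom, so it carries the spread between these cultures and nothing on repeat cultures. That spread is the disagreement between the pairs, and UCA1, HULC and LOC553137 were picked because the pairs agreed in direction. Their p-values are therefore not independent of the choice, and the calls are given as a description. Of 11691 genes tested, 8.48% were called at an adjusted p of at most 0.05, and 2 of the 8 members tested were among them. UCA1 was higher in the Huh7 lineage, by 6.84 on the log2 scale (edgeR adjusted p = 6.68e-06), and higher in Huh7 than Hep3B (835 against 8.98 CPM) as in Huh7-C than Hep3B-C (7.61 against 0 CPM). HULC was lower in the Huh7 lineage, at -3.11 (edgeR adjusted p = 0.0331), again in both states. Both estimates include a library with 0 counts and are no bound on a fold. Without the state term neither was called (edgeR adjusted p = 0.0951 and 0.524), while 797 of the 11691 genes were. With 1 library left out and no state term, the log2 difference ranged from 0.99 to 13.85 for UCA1 and from -10.00 to 0.070 for HULC.

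The other 6 members tested did not pass, with edgeR adjusted p of 0.355 for SNHG8, 0.769 for GAS5, 0.891 for NEAT1, 0.906 for LOC553137, 0.968 for MALAT1 and 0.976 for SNHG1. For MALAT1, NEAT1 and SNHG1 the order of the lineages was opposite in the 2 states. Among HCC lines Hep3B exceeded Huh7 5.10-fold for MALAT1 (counting interval 4.94 to 5.27), 15.0-fold for NEAT1 (12.7 to 17.8) and 1.60-fold for SNHG1 (1.32 to 1.95). Among HCSC lines Huh7-C exceeded Hep3B-C 4.05-fold for MALAT1 (3.72 to 4.42), 5.89-fold for NEAT1 (3.79 to 9.52) and 1.96-fold for SNHG1 (1.51 to 2.55). SNHG8 was higher in the Huh7 lineage in both states, by 2.14-fold (1.33 to 3.57) and 5.71-fold (2.77 to 13.2). For GAS5 the 3.10-fold excess of Hep3B over Huh7 was not seen between the HCSC lines (1.01-fold, 0.760 to 1.35). CDKN2B-AS1 was too low for the test.

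**Figure D3:**
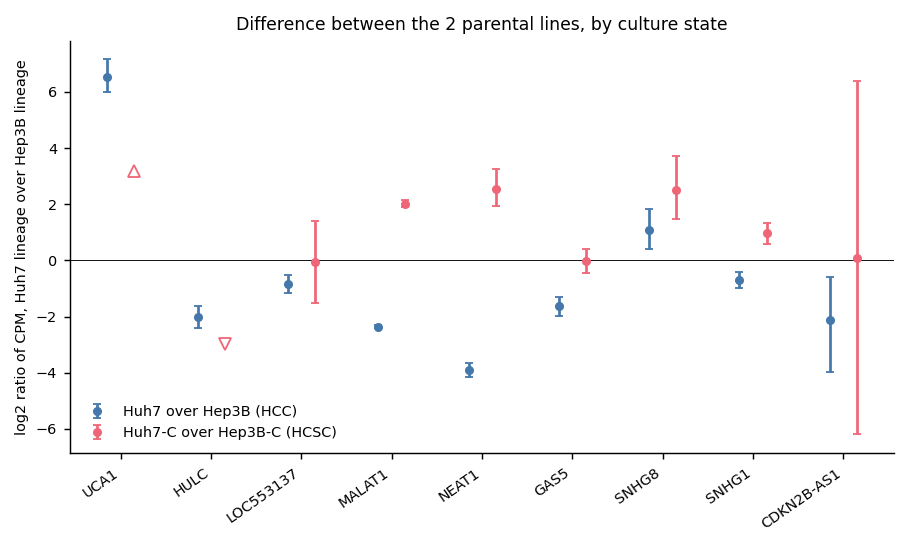
Log2 ratio of CPM in the Huh7 lineage over the Hep3B lineage for each RNA, in HCC lines (blue) and HCSC lines (red), with 95% counting intervals, and open triangles at the lower (UCA1) or upper (HULC) bound where a library had 0 counts. UCA1 and SNHG8 are above 0 and HULC is below 0 in both states, whereas MALAT1, NEAT1 and SNHG1 lie below 0 among HCC lines and above 0 among HCSC lines.

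Other noncoding RNAs and partner proteins were counted from lists of gene names, which were drawn up with earlier results of these data known. Beside each count stand the shares among the 11151 genes that reached 10 counts in both pairs. Of these, 38.4% were at least 2-fold lower and 18.3% at least 2-fold higher in Hep3B-C, while in Huh7-C the shares were 6.3% and 6.65%. Among snoRNA hosts (18 with at least 10 counts in each pair, including GAS5, SNHG1 and SNHG8), 7 were at least 2-fold lower in Hep3B-C and 2 in Huh7-C, against 1 and 0 higher. The median log2 ratios of the hosts were -0.80 and -0.31, beside -0.54 and 0.07 over all 11151 genes. GAS5, SNHG1 and SNHG8, chosen as members by these ratios, are among the 7 and enter the medians. With them counted, the share of hosts lower in Hep3B-C was near that of all genes, and nothing is read from it. With the length trend removed the median in the Hep3B pair was -2.01, beside -0.58 for all genes. SNHG6, with 53, 19, 157 and 61 counts in Hep3B, Hep3B-C, Huh7 and Huh7-C, was lower in both lines, and so was SNHG12 (9, 1, 10 and 4 counts). The counting interval of the SNHG12 ratio of HCSC to HCC in the Huh7 pair, 0.096 to 1.45, held 1. Of all genes 3.08% were at least 2-fold lower in both lines. SNHG17 had log2 ratios of 0.11 and 0.13, and EPB41L4A-AS1 had -1.17 and 0.27. DANCR was the host that was higher in Hep3B-C, at 593 counts against 141, with 441 in Huh7-C against 509 in Huh7. DANCR is named after its values were seen.

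Of 24 further long noncoding RNAs with enough counts, 14 were at least 2-fold lower in Hep3B-C and 3 in Huh7-C, beside 38.4% and 6.3% of all genes. The medians were -1.24 and -0.26, and the former stayed at -1.24 with the length trend removed. H19, an imprinted fetal RNA, had 48007 counts in Hep3B and 16046 in Hep3B-C, against 249 in Huh7 and 63 in Huh7-C, with log2 ratios of -2.26 and -1.91. LINC00261, a gene next to FOXA2 that is expressed in endoderm, had 559, 252, 373 and 89 counts, with log2 ratios of -1.83 and -1.99. MIR22HG was the remaining RNA at least 2-fold lower in both lines (29, 8, 12 and 4 counts), and is named because the count is small. The counting interval of its ratio of HCSC to HCC in the Huh7 pair, 0.082 to 1.15, held 1. In the opposite direction FOXD2-AS1 was higher in both (2, 12, 10 and 25 counts), but its interval in the Hep3B pair, 0.833 to 34.4, held 1. Of all genes 3.08% were at least 2-fold lower and 1.09% at least 2-fold higher in both lines. BCYRN1 had 41, 749, 395 and 728 counts, but its sequence resembles Alu repeats, so its reads may be shared with other transcripts.

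Noncoding RNAs were also grouped by length, because the ratios of all genes in the Hep3B pair followed it. Of 10 noncoding RNAs of at least 5000 bases, members included, 8 were at least 2-fold lower in Hep3B-C, where 65.9% of all genes of this length were. Of 37 shorter ones, members included, 18 were, against 31.9% of all genes. Their median log2 ratios were -1.86 and -0.92, and those of all genes -1.47 and -0.26. In the Huh7 pair the medians of the noncoding RNAs were -0.46 and -0.27, and those of all genes 0.39 and -0.01. The members in both classes were chosen by these ratios, so no excess over all genes is read from these counts and medians.

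**Figure D4:**
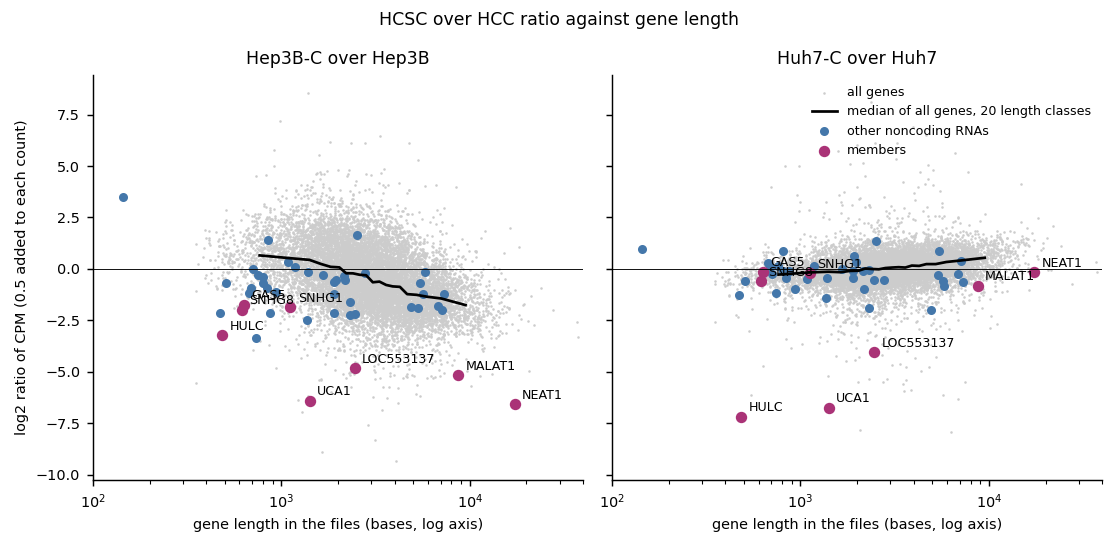
Log2 ratio of HCSC to HCC against the gene length in the files (log axis) in the Hep3B pair (left) and the Huh7 pair (right). Gray points are all genes that reached 10 counts in both pairs, the black line is their median in 20 length classes, blue points are other noncoding RNAs, and the 8 members with enough counts are labeled. KCNQ1OT1, a noncoding RNA of 59461 bases (log2 ratios of -4.50 and -0.74), lies beyond the length axis and is not shown. In the Hep3B pair the median falls with length and the members lie below it, and in the Huh7 pair UCA1, HULC and LOC553137 lie far below the median. The members were chosen by these ratios.

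Proteins that act with these RNAs were examined as well. Of 14 paraspeckle proteins, which bind NEAT1, 2 were at least 2-fold lower and 2 at least 2-fold higher in Hep3B-C, and none passed 2-fold in Huh7-C. Among all genes 38.4% were lower and 18.3% higher in Hep3B-C, while in Huh7-C the shares were 6.3% and 6.65%. The core protein SFPQ had log2 ratios of -0.36 and 0.23, of which the first changed sign with TMM scaling (0.12). PSPC1, the other core protein named, had -1.64 and -0.07, while RBM14 (1.21 and 0.35) was higher. The partners of NEAT1 thus had values on both sides of 0 in the line where NEAT1 itself was lowest.

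Of 14 nonsense-mediated decay factors, 4 were at least 2-fold lower and 2 at least 2-fold higher in Hep3B-C, while 0 were lower and 1 higher in Huh7-C. The share lower in Hep3B-C was below the 38.4% of all genes, of which 18.3% were higher there. In Huh7-C 6.3% of all genes were lower and 6.65% higher. The factor higher in Huh7-C was the kinase SMG1 (log2 ratios of -1.91 and 1.47), named after its values were seen. UPF2, an adapter of the decay complex, had log2 ratios of -1.76 and 0.57, UPF3A had -1.05 and -0.18, SMG5 had 1.25 and 0.36, and SMG8 had 0.50 and 0.31. Of the 8 snoRNP core proteins, which package the snoRNAs of the hosts, 1 was lower and 3 were higher in Hep3B-C, beside 38.4% and 18.3% of all genes. Their median there was 0.74, beside the -0.54 of all genes. With the length trend removed this median was -0.05, beside -0.58 for all genes. SNU13 had log2 ratios of 1.72 and 0.54, GAR1 0.69 and 0.79, NOP10 0.12 and -0.75, and NOP58 -1.04 and 0.34. The median of this list in Huh7-C was 0.40, and no member of it passed 2-fold there.

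Of 12 factors tied to UCA1 or HULC in other work, 8 were at least 2-fold lower in Hep3B-C and 1 in Huh7-C, beside 38.4% and 6.3% of all genes. The median in the Hep3B pair was -1.38, and with the length trend removed it was -0.62, near the -0.58 of all genes. CREB1, a cAMP-responsive factor that has been tied to HULC, had log2 ratios of -2.29 and -0.27. EPAS1, a hypoxia-inducible factor, had -1.42 and -0.36. TEAD4, a partner of YAP, was higher, with 2.00 and 0.64, and the RNA-binding protein PTBP1 had 0.55 and 0.37. The factor at least 2-fold lower in Huh7-C was CEBPA, a liver transcription factor tied to UCA1, at 154 counts against 462 in Huh7 and 727 against 392 in the Hep3B pair. No factor of this list was lower by 2-fold in both lines.

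**Figure D5:**
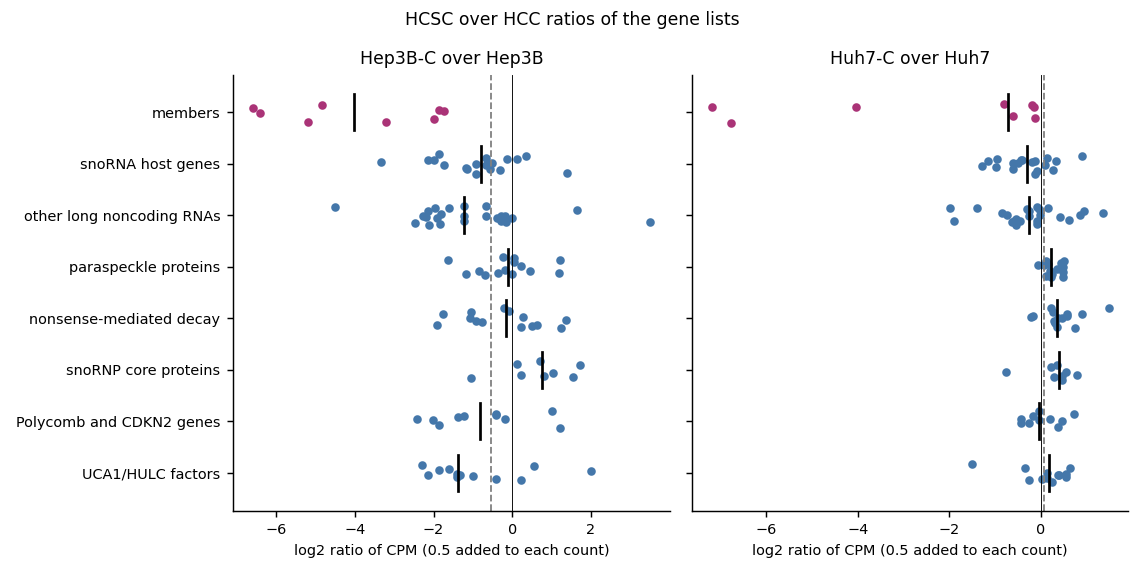
Log2 ratio of HCSC to HCC for each gene with at least 10 counts in each pair (points, spread vertically for legibility), by list, in the Hep3B pair (left) and the Huh7 pair (right). Black bars are list medians and the dashed line is the median of all genes (-0.54 and 0.07). The members' bar (-4.02 and -0.71) stands left of all others in both panels, and the members were chosen by these ratios.

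Polycomb proteins and the CDKN2 locus were listed for CDKN2B-AS1. Of these 10 genes, 5 were at least 2-fold lower and 2 higher in Hep3B-C, beside 38.4% and 18.3% of all genes, and none passed 2-fold in Huh7-C. The Polycomb subunits CBX7 (-2.43 and -0.44), BMI1 (-2.01 and -0.26) and RNF2 (-1.23 and 0.37) had lower values in the Hep3B pair, and RING1 (1.004 and -0.43) a higher one. CDKN2B, which CDKN2B-AS1 overlaps in antisense, had 14, 17, 13 and 12 counts in Hep3B, Hep3B-C, Huh7 and Huh7-C. CDKN2A, which is annotated as overlapping CDKN2B-AS1, had 217, 810, 254 and 237 counts. The strand setting of the counting is not given in the sources used here, so reads of overlapping genes cannot be told apart.

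Among genes listed next to the members, some were lower in Hep3B-C with their member and some were higher. MALAT1 (-5.18 and -0.81) and NEAT1 (-6.59 and -0.16), listed next to each other, were both lower. SLC3A2, a subunit of amino acid transporters that starts 224 bases from SNHG1, had 92, 1154, 1039 and 1463 counts, with log2 ratios of 2.96 and 0.56. PRSS12, 215 bases from SNHG8, had log2 ratios of -0.26 and -1.41. FRMD8, next to NEAT1, had -0.33 and 0.72. Around HULC, SLC35B3 (-0.95 and -0.74) and TFAP2A (-2.72 and 0.34) are the nearest listed genes, 216702 and 1742821 bases away. The cytochrome genes beside UCA1, CYP4F12 (0, 6, 8 and 19 counts) and CYP4F2 (0, 25, 2 and 2 counts), were too low in Hep3B for a ratio. Beside GAS5, SERPINC1 had log2 ratios of 4.72 and -1.20, and ZBTB37, which overlaps GAS5, had -2.13 and 3.13 at 1 to 20 counts. Other neighbors were WDR74 near SNHG1 (1.55 and 0.24) and NDST3 and DMRTA1, which had at most 13 counts in any library.

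For the 3 RNAs lower in both HCSC lines, the genes of most similar profile were taken among 10680 candidates, by the Euclidean distance of log2(CPM + 1) over 4 libraries, each profile centered on its mean. Nearest to UCA1 were IGFBP1, an insulin-like growth factor binding protein of the liver (distance 2.75), HABP2, a plasma protease (3.06), and FXYD3, a regulator of ion transport (3.26), against a median distance of 7.09. IGFBP1 had 70.8 CPM in Hep3B and 19.2 in Hep3B-C, against 3799 in Huh7 and 460 in Huh7-C. Like UCA1 it stood highest in Huh7 and lowest in Hep3B-C. Nearest to HULC were the actin-binding ABLIM3 (1.42), NAV2 (1.47) and the metabolic coactivator PPARGC1A (1.52), against a median of 4.44. Nearest to LOC553137 were the homeobox gene CUX2 (0.67), the helix-loop-helix inhibitor ID2 (1.16) and again PPARGC1A (1.26), against a median of 3.96. CUX2 had 65, 3, 42 and 0 counts in Hep3B, Hep3B-C, Huh7 and Huh7-C, and PPARGC1A had 109, 11, 127 and 0. Each profile has 4 points, so the distances are a description.

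Promoter windows, from 250 bases before to 50 after the start, were held by the reference table for 5 of the 9 members (MALAT1 with a pair of starts, GAS5, SNHG8, SNHG1 and CDKN2B-AS1). Motifs were searched on both strands. GC boxes (GGGCGG) were in the windows of MALAT1, SNHG8, SNHG1 and CDKN2B-AS1 and in 45.0% of all windows. The sequence TGACG, contained in the cAMP response element, was in those of MALAT1, SNHG8 and CDKN2B-AS1 and in 24.6% of all windows, and the full TGACGTCA was in none of the members' (1.85% of all). TATAAA was in one MALAT1 window and in SNHG1 (11.5% of all), CCAAT and GTTAAT in GAS5 (34.6% and 6.88%), and ACGTG, which lies within CACGTG, in SNHG8 (21.4%). No window of a member held CACGTG (7.26%), TGANTCA (7.71%), TTGCNNAA (10.5%) or CAAAGTCCA (0.384%). These are matches of letters, and nothing on factor binding is read from them.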

How the data were processed

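An Illumina Genome Analyzer II was used to sequence RNA of 2 HCC lines and 2 HCSC lines. The authors aligned filtered reads to NCBI Build 36.1 with NextGENe. They deposited raw counts of reads for each gene, with gene lengths. RPKM was not in the files and was recomputed. Treatment of multiply mapping reads, strand and annotation are not given in the sources used here. Genes were joined by ID, and a gene not listed for a pair was taken as 0. Rows without a symbol held 0.0198% to 0.0535% of counts.

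CPM was the count per 1000000 gene counts. Ratios used 0.5 added to each count on the log2 scale, exact (Clopper-Pearson) 95% intervals, Poisson intervals for levels and a floor of 3 counts. These cover counting error only. HCSC and HCC were not tested against each other, since their ratios chose the members. The lineages were compared by edgeR 4.0.16 (TMM, filterByExpr, quasi-likelihood, culture state as a term, Benjamini-Hochberg) in R 4.3.3. A run on simulated counts had less spread between libraries than these data, so it says nothing on the p-values here. DESeq2 1.42.0 was an alternative. Lowess trends used genes with at least 20 counts. Nothing states that repeat cultures were made, so p-values weigh the lineage difference against the spread between these libraries only. With the state term in the fit, that spread is the disagreement between the pairs.

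Sequences and positions came from RefSeq (GRCh38.p14) and GENCODE 29 (GRCh38). Members and lists were chosen with earlier results of these data known. Named genes were all 9 members, the 3 nearest profiles, neighboring genes and, from each list, the 2 genes with the largest and the 2 with the smallest ratio in the less changed line. Some genes that this rule names are not reported here.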

Additional observations from a re-analysis of the deposited data

Results flagged for a closer look

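None of the 9 RNAs moved in opposite directions in the HCSC lines beyond counting error. Of the other genes named, leaving out the hepatocyte markers, 9 did. The difference was not tested for any of them, since each line was 1 library. As log2 ratio in Hep3B-C minus that in Huh7-C, the values were -0.59 for the paraspeckle protein SFPQ, whose sign in Hep3B-C turned with TMM scaling, -2.33 for the decay factor UPF2, -1.38 for the snoRNP protein NOP58 and 1.43 for the Polycomb protein RING1. For list members singled out after their values were seen they were -3.38 for the decay factor SMG1, -2.38 for the long noncoding RNA TUG1 and 1.73 for CEBPA. For the neighbors of GAS5 they were -5.26 for ZBTB37, which had at most 20 counts in a library, and 5.92 for SERPINC1, which encodes antithrombin. Among hepatocyte markers, SERPINA1 (log2 ratios of 1.41 and -1.23), APOA1 (2.36 and -1.87) and HNF4A (0.54 and -0.51) were higher in Hep3B-C and lower in Huh7-C. APOB (-0.49 and 0.65) and ALB (-0.08 and 1.33) had the reverse signs, and ALB in Hep3B-C turned with TMM scaling (0.40). AFP and TF were lower in both lines, and TTR had 1.03 and 0.07. These were not tested either.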

How the results depend on the processing

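Library scaling (TMM, DESeq2), 5 added to each count, and removal of length or GC trends gave 86 further member ratios, of which 82 kept their sign and 20 moved beyond their counting interval. The 4 that changed sign were those of GAS5 and SNHG1 in the Huh7 pair, at 0.24 and 0.051 with the length trend removed and 0.22 and 0.0089 with length and GC trends removed. Members at least 2-fold lower stayed at 9 in Hep3B-C and ranged from 3 to 5 in Huh7-C. GC content was known for 7 of 9 members, so a count of members with the GC trend removed is void and was not made. In the lineage test, DESeq2, other size factors and no filter called the same 2 members. Over all genes these settings called 758 of 11691, 993 of 11691 and 1017 of 16370. Without the state term 0 members were called, beside 797 of 11691 genes, and SNHG1 moved to -0.045. Each library was also left out in turn, which left its lineage with 1 library, so only log2 differences are given. In these fits the log2 difference ranged from -10.00 to 0.070 for HULC, -3.76 to 2.96 for LOC553137 (0.36 without Huh7-C), -2.46 to 2.30 for MALAT1, -3.75 to 2.44 for NEAT1, -0.55 to 0.89 for SNHG1 (-0.12 without Huh7) and 0.99 to 13.85 for UCA1. A lineage left with 1 library was assumed to vary like the other. The cause was not tested. Pairs were set by parental line, which the lineage fit holds with the state term. Depth limited CDKN2B-AS1, and UCA1 and HULC where they had 0 counts.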

Other observations

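The snoRNAs encoded in the introns of the hosts were nearly unread. Of 11 snoRNA genes annotated within GAS5, 3 were listed, with at most 3 counts in a library. Of 8 within SNHG1, 2 were listed, with at most 5 counts, and the 1 within SNHG8 was not listed. Another long nuclear RNA, KCNQ1OT1, had 1194 counts in Hep3B and 84 in Hep3B-C, against 58 in Huh7 and 33 in Huh7-C, and TUG1 had 1420, 579, 530 and 672. Their log2 ratios were -4.50 and -0.74 for KCNQ1OT1 and -1.97 and 0.41 for TUG1. Both were chosen after their values were seen.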
